A study of Homo sapiens with 8 samples.

Results

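The response of THP-1 cells to FRAX-597 was set against their response to IPA-3, gene by gene, to separate what both inhibitors did from what only one of them did. THP-1 cells are an established line of acute monocytic leukaemia with the fusion gene MLL-AF9. All 8 arrays of the series were used: 4 of cells given the solvent DMSO, 2 of cells given IPA-3 at 6 µg/mL and 2 of cells given FRAX-597 at 2 µg/mL, each for 5 h, with DMSO added in the same volume as the drugs. The change with IPA-3 was taken against DMSO arrays 1 and 2, the change with FRAX-597 against DMSO arrays 3 and 4, and the difference between the compounds is the FRAX-597 change minus the IPA-3 change. Of 14884 genes measured by a named probe, 2239 were kept because both arrays of each compound lay on one side of both of their DMSO arrays. Of these, 880 moved in opposite directions with the compounds and 1359 in the same direction. The 2 opposed patterns held 2.96% and 2.95% of all genes, and the 2 shared patterns 3.16% and 5.97%. With 2 arrays a group some genes meet this rule by chance, and the counts were not tested against that. All values are log2 expression values or differences between them, so a difference of 1 is a doubling. Whether the arrays of a group were separate cultures is not given in the labels. The p-values therefore reflect the variation among arrays of a group, part or all of which may be technical. The compounds were given at different doses. Each was also set against its own DMSO arrays, and the 2 sets of arrays differed in level, as described below. Compound, dose and array set cannot be told apart in what follows.

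The p21-activated kinases (PAKs) are serine/threonine kinases that act downstream of the small GTPases RAC and CDC42 on the cytoskeleton, growth signalling and survival, and PAK1 is the kinase that the title of the study names. IPA-3 is a disulfide that binds the regulatory part of PAK1 and keeps it from being activated, whereas FRAX-597 is a pyridopyrimidinone that competes with ATP in the kinase domain of the group I PAKs. Several gene programmes serve here as reporters of cell state. SREBP transcription factors raise the enzymes of cholesterol synthesis and uptake when membrane sterol falls. HSF1 raises chaperones when proteins misfold. ATF4 carries the integrated stress response and raises amino acid synthesis enzymes, transporters and tRNA synthetases, while NRF2 raises antioxidant enzymes when its inhibitor KEAP1 is modified by electrophiles. MYB and MYC are transcription factors on which MLL-rearranged leukaemia cells depend.

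The 250 bases before the transcription start are shown for 4 genes that stand for the programmes described below, taken from RefSeq (GRCh38.p14) and written 5′ to 3′ along the gene, with a motif in capitals. MSMO1 stands for the sterol genes that were higher with FRAX-597 and lower with IPA-3, HSPA1A and CHORDC1 for the chaperone genes with the opposite pattern, and ASNS for the stress genes that were higher with both. The capitals mark the CCAAT box (CCAAT or its reverse ATTGG) in MSMO1, at chr4:165327419-165327668 on the + strand, and in HSPA1A, at chr6:31815293-31815542 on the + strand. In CHORDC1, at chr11:90223050-90223299 on the - strand, they mark overlapping matches to the heat shock element, and in ASNS, at chr7:97872409-97872658 on the - strand, the ATF4 element TGATGNAA.
MSMO1: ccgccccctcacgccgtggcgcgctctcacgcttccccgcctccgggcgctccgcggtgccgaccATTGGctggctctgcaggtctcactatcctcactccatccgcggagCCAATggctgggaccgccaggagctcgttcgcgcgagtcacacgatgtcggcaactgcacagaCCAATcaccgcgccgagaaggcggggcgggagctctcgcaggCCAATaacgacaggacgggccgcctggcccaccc
HSPA1A: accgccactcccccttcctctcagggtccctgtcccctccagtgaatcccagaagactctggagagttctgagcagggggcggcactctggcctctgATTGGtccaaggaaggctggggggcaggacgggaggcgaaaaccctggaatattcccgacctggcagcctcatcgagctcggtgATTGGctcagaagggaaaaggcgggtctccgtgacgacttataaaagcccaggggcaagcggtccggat
CHORDC1: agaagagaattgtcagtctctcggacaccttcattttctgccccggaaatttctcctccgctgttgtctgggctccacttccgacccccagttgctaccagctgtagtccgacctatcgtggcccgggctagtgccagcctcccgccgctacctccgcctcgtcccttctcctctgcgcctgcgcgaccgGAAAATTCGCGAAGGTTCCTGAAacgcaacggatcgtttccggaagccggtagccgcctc
ASNS: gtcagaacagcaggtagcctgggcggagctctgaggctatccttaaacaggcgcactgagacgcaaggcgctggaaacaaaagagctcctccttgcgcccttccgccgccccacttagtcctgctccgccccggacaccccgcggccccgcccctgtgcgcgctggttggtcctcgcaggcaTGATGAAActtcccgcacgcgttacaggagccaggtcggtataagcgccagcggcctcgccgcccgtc
MSMO1 held 4 CCAAT boxes, HSPA1A held 2, CHORDC1 held 3 overlapping heat shock element matches, and ASNS held 1 ATF4 element that began 68 bases before the start. Promoters were matched to 10749 of the 14884 genes, and each motif was searched on both strands. A CCAAT box lay in 34.3% of these promoters, against 33% of all 27305 promoters in the RefSeq table. It lay in 7 of the 8 promoters of the sterol genes that were higher with FRAX-597 and lower with IPA-3, IDI1 being the one without, and in 13 of 17 promoters (76.5%) of all the sterol genes measured. Of the 6 opposed chaperone genes 2 held it (33.3%), HSPA1A and HSPA1B, and of all 12 heat shock promoters 3 did (25%). The heat shock element was found in 0.419% of the promoters of genes tested and 0.439% of all promoters, and in 1 of the 6 opposed chaperone genes, CHORDC1. Of all 12 heat shock promoters 2 held it (16.7%). The ATF4 element was found in 1.95% of promoters of genes tested and 3.19% of all promoters. It lay in 2 of the 11 stress genes with a promoter that were higher with both compounds (18.2%), ASNS and IARS1. Of the promoters of all the stress genes measured, 4 of 23 held it (17.4%), a similar share. The sterol element was present in 0.0465% of promoters of genes tested and 0.0366% of all promoters, and in 0 of the 8 opposed sterol genes, within this window. The antioxidant element TGACNNNGC lay in 2 of 12 promoters of NRF2 targets (16.7%), against 11.9% of genes tested. The E-box CACGTG lay in 7 of 21 promoters of MYC targets (33.3%), against 7.93%, and in 2 of the 6 that were lower with both compounds. These are matches of letters, not measured binding sites, and the CCAAT box and heat shock element were added to the search after the data were seen.

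The arrays fell into 2 sets, which the choice of controls follows. The median over all probes was between 5.51 and 5.55 in DMSO 1 and 2 and the IPA-3 arrays, and between 6.00 and 6.05 in DMSO 3 and 4 and the FRAX-597 arrays. Across probes, arrays correlated at 0.986 to 0.992 within the first set, 0.974 to 0.99 within the second, and 0.942 to 0.956 between them. The labels do not tie a DMSO array to a compound. Within the second set, DMSO 3 differed from DMSO 4 in the same genes as FRAX-597 1 from FRAX-597 2 (r = 0.65 across 14884 genes), whereas the corresponding r in the first set was -0.06. Of the 16 monocytic leukaemia markers, 8 were measured. CD68 lay between 11.67 and 12.09, LYZ between 9.71 and 11.27 and SPI1 between 9.08 and 9.42, whereas MEIS1 lay between 4.77 and 4.99, below the median probe level of 5.76. The summed level of the 8 monocytic markers was 12.53 to 13.04 over the arrays. It was 9.41 to 10.07 for 4 epithelial markers, 7.82 to 8.38 for 3 T cell markers, 5.96 to 8.36 for the 1 B cell marker measured, 5.80 to 7.17 for 1 erythroid marker and 4.11 to 5.28 for 2 fibroblast markers.

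Shared decreases were the most frequent of the 4 patterns. With both compounds 889 genes were lower (5.97% of all genes) and 470 were higher (3.16%), while 441 were higher with FRAX-597 and lower with IPA-3 (2.96%) and 439 were lower with FRAX-597 and higher with IPA-3 (2.95%). These classes are a description of the values and carry no test. Most members moved little: the smaller of the 2 changes was at least 0.5 in 20 genes that were lower with both (0.134%), in 32 that were higher with both (0.215%), and in 2 and 4 genes of the opposed classes (0.0134% and 0.0269%). It reached 1 in 1 gene that was lower with both (0.00672%), 5 that were higher with both (0.0336%), and 1 and 0 genes of the opposed classes (0.00672% and 0.0%).

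Taken one compound at a time, both IPA-3 arrays lay above both of their DMSO arrays in 2866 genes (19.3%) and below them in 4216 (28.3%), and both FRAX-597 arrays lay above theirs in 1930 (13%) and below in 2648 (17.8%). Of the 1930 genes above with FRAX-597, 24.4% were also above with IPA-3 and 22.8% were below, which is 16.4% of the genes above and 10.5% of the genes below with IPA-3. Of the 2648 genes below with FRAX-597, 33.6% were also below with IPA-3 and 16.6% were above, or 21.1% and 15.3% of the corresponding IPA-3 genes. The shares over all genes to read these against are 28.3% below and 19.3% above with IPA-3, and the difference in shares was not tested.

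Across all genes the change with IPA-3 and the change with FRAX-597 correlated at r = 0.19 (rho = 0.11), and at r = 0.25 over the 10228 genes at or above the median probe level. With single treated arrays in place of the means, r was 0.23 and 0.16 when FRAX-597 1 was used and 0.056 and 0.047 when FRAX-597 2 was used. With all 4 DMSO arrays as the controls of both compounds, r was -0.42, and without FRAX-597 1 it was 0.057. Genes are not independent replicates and the points share their arrays, so these values describe the plot of one change against the other. In limma's fit with Benjamini-Hochberg adjustment, 5 genes passed the threshold of 0.05 with IPA-3 (0.0336%) and 23 with FRAX-597 (0.155%), and 0 passed with both. At an unadjusted p under 0.05 with each compound, 137 genes moved in the same direction and 38 in opposite directions.

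**Figure D1:**
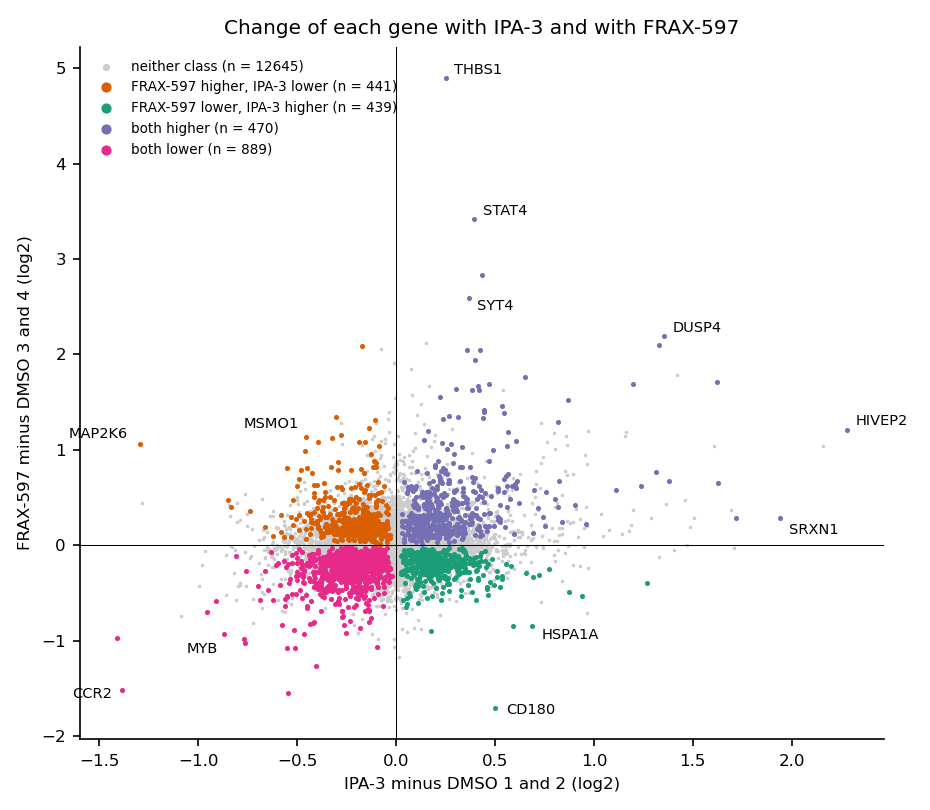
Change of each of 14884 genes with IPA-3 (x axis, IPA-3 mean minus the mean of DMSO 1 and 2, log2) and with FRAX-597 (y axis, FRAX-597 mean minus the mean of DMSO 3 and 4, log2). Colours mark the 4 classes and grey the 12645 genes in none of them. Most coloured genes lie near the origin, THBS1 stands alone at a FRAX-597 change of 4.89, and MAP2K6 is the one opposed gene with both changes of at least 1.

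Level and kind of gene varied between the classes, which is given as a description. The median level was 8.05 in genes lower with both compounds and 6.06 in genes lower with FRAX-597 and higher with IPA-3, against 6.69 over all genes. It was 7.58 in genes higher with FRAX-597 and lower with IPA-3 and 7.19 in genes higher with both. Protein-coding genes made up 91.2% of the genes lower with both, 77.7% of those lower with FRAX-597 alone in direction, and 80.1% of all genes. Genes below the median probe level made up 40.3% of the class lower with FRAX-597 and higher with IPA-3 and 31.3% of all genes. Close to the edge of the rule, PLPP6 was kept as higher with FRAX-597 and lower with IPA-3 by a gap between arrays of 0.00012, and CBS was left out by a tie. BUB1B was kept as lower with both by 0.00032 and CFL1 was left out by a tie, and SETD5 was kept as higher with both by 0.00015 where MOB2 was left out by a tie. CSPG4 was kept as lower with FRAX-597 and higher with IPA-3 by 0.00016, next to a tie in A1BG.

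Few genes passed the test of the difference itself. In limma's fit of the difference over 14884 genes with Benjamini-Hochberg adjustment, 2 genes had an adjusted p under 0.05 (0.0134%), both higher with FRAX-597 than with IPA-3, and 0 were lower. At an unadjusted p under 0.05 there were 909 genes (6.11%), 511 of them higher (3.43%) and 398 lower (2.67%). The first was THBS1, which encodes thrombospondin-1, a secreted matrix protein that binds CD36 and CD47 and activates TGF-beta. THBS1 measured 5.58 and 5.71 in DMSO 1 and 2, 5.93 and 5.87 with IPA-3, 6.47 and 6.09 in DMSO 3 and 4, and 10.86 and 11.49 with FRAX-597. Only the FRAX-597 arrays were high, and the IPA-3 arrays lay just above DMSO 1 and 2, which places THBS1 among the genes higher with both. DMSO 1 and 2 lay below the median probe level of 5.76 and DMSO 4 close to the median of its own array, so its control values are dim. The difference was 4.64 (SE 0.31, 95% interval 3.93 to 5.36, limma adjusted p = 0.011), made of a FRAX-597 change of 4.89 and an IPA-3 change of 0.25. The second was SYT4, a synaptotagmin of secretory vesicles, at 4.71, 4.35, 4.89, 4.90, 4.80 and 4.86 in DMSO 1 and 2, IPA-3 1 and 2, and DMSO 3 and 4, and at 7.45 and 7.39 with FRAX-597. All arrays but those of FRAX-597 lay below the median probe level. Its difference was 2.23 (SE 0.19, limma adjusted p = 0.0372).

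Both calls were lost without some of the arrays. With DMSO 1, DMSO 2 or either IPA-3 array left out, 0 genes passed, and the limma adjusted p was 0.0955 to 0.295 for THBS1 and 0.0955 to 0.379 for SYT4. The difference of THBS1 stayed between 4.57 and 4.71 in these fits. Some calls with 1 compound alone among the named genes were also lost in each of them. Of the named changes with 1 compound, only those of PAK4 and PAK5 changed sign when a single array was left out. Without DMSO 3 or DMSO 4, SYT4 no longer passed (adjusted p = 0.132 and 0.102). Without DMSO 3, THBS1 and TBX15 passed, without DMSO 4 there were 4 genes, without FRAX-597 1 there were 12 and without FRAX-597 2 there were 27. In each of these fits 1 array stands alone and is assumed to vary like the other groups, so a larger count from fewer arrays is no support for the genes called.

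Among genes with a difference in the other direction was SRXN1, which encodes sulfiredoxin, an enzyme that restores over-oxidised peroxiredoxins. SRXN1 measured 7.68 and 7.86 in DMSO 1 and 2, 9.83 and 9.60 with IPA-3, 8.93 and 8.76 in DMSO 3 and 4, and 9.24 and 9.03 with FRAX-597. Treated arrays lay above their own DMSO arrays with both compounds, and the IPA-3 arrays were the highest of the 8. SRXN1 rose with IPA-3 by 1.94 (SE 0.14, limma adjusted p = 0.0108), and its FRAX-597 change was 0.29 (SE 0.14, limma adjusted p = 0.732). The difference of -1.65 (95% interval -2.12 to -1.19) had an adjusted p of 0.146. A further fit took DMSO 3 and FRAX-597 1, and DMSO 4 and FRAX-597 2, as pairs, a pairing read from values and not from labels. There the limma adjusted p of the difference was 0.0219 for SRXN1, and 0.0236 for MSMO1 and HMGCS1. It was 0.0472 for MAP2K6, 0.0483 for CD180 and 0.0314 for VEGFC, which are described below. Because the pairs were chosen from the same values, these p-values are no support for the genes, and none of them passed in the main fit. Set directly against the IPA-3 arrays with all 4 DMSO arrays as controls, the difference of SRXN1 was -0.58, since the DMSO arrays of the second set were higher than those of the first.

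**Figure D2:**
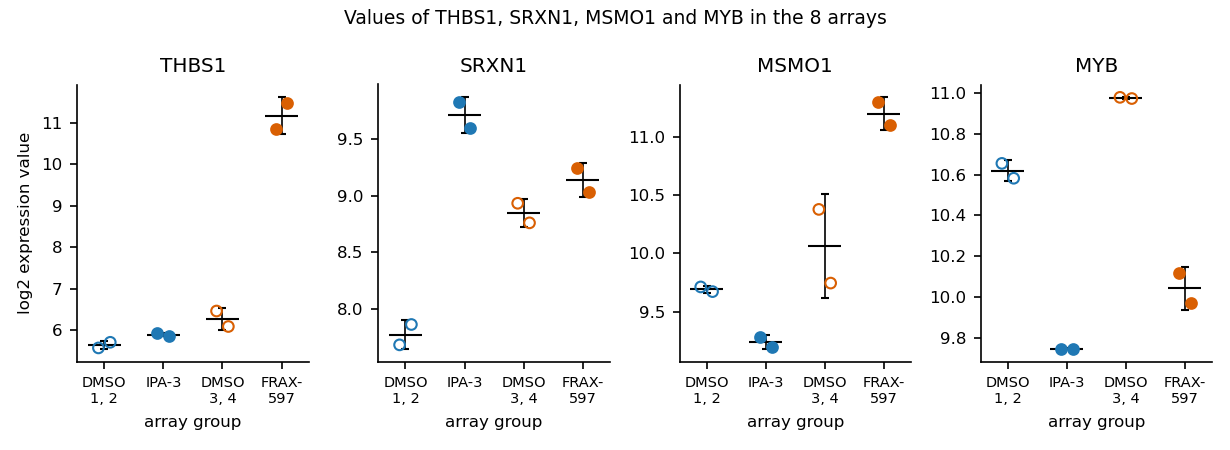
Values of THBS1, SRXN1, MSMO1 and MYB in the 8 arrays (log2 expression value, 1 panel per gene, each with its own axis). Open points are DMSO arrays, filled points treated arrays, blue the first and orange the second set, bars the mean and SD of 2 arrays. THBS1 is high in FRAX-597 alone, SRXN1 is farthest above its DMSO arrays with IPA-3, MSMO1 parts in opposite directions, and MYB is lower with both.

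Of 28 genes of cholesterol synthesis and uptake, 19 were measured, and 8 of them were higher with FRAX-597 and lower with IPA-3, a class that held 2.96% of all genes. Another 2 were lower with both and 9 were in no class. The 8 spanned the pathway: HMGCS1 (HMG-CoA synthase), MVK (mevalonate kinase), IDI1 (isopentenyl diphosphate isomerase) and FDPS (farnesyl diphosphate synthase) in the mevalonate part, MSMO1, HSD17B7 and DHCR7 among the enzymes that convert lanosterol to cholesterol, and STARD4, a sterol carrier. The median change of the 19 genes was 0.44 with FRAX-597 and -0.24 with IPA-3, against -0.02 and -0.02 over all genes, and the median difference was 0.62 against 0.01. All 19 had an IPA-3 change below 0, 15 had a FRAX-597 change above 0, and 17 had a difference above 0. The difference had an unadjusted p under 0.05 in 11 of the 19, all higher, against 3.43% of all genes. After limma adjustment 0 passed for the difference or for either compound.

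MSMO1, the methylsterol monooxygenase, measured 9.71 and 9.67 in DMSO 1 and 2, 9.28 and 9.19 with IPA-3, 10.38 and 9.74 in DMSO 3 and 4, and 11.30 and 11.10 with FRAX-597. The treated arrays of each compound lay outside the range of their DMSO arrays, on opposite sides, although DMSO 3 was well above the other DMSO arrays. Its difference was 1.59 (SE 0.28, 95% interval 0.94 to 2.25, limma adjusted p = 0.349), from changes of 1.14 and -0.45. HMGCS1 measured 7.98 and 8.11, then 7.78 and 7.65 with IPA-3, and 7.62 and 8.32, then 8.65 and 9.55 with FRAX-597. Its FRAX-597 arrays were 0.90 apart and its DMSO 3 and 4 arrays 0.70 apart in the same direction, and the difference was 1.45 (SE 0.45, adjusted p = 0.681). HSD17B7 was steadier, at 6.51 and 6.71, 6.23 and 6.25, 6.81 and 6.76, and 7.28 and 7.60 in the same order, with a difference of 1.02 (SE 0.19).

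The other 5 opposed sterol genes had FRAX-597 changes of 0.35 (FDPS) to 0.61 (DHCR7) and IPA-3 changes of -0.23 (IDI1) to -0.30 (DHCR7). INSIG1, a sterol-regulated retention protein named after its values were seen, had changes of 1.11 and -0.12 but its IPA-3 arrays overlapped its DMSO arrays. PMVK and SCAP were lower with both compounds, by 0.12 to 0.35. With all 4 DMSO arrays as controls 5 of the 19 genes were in the opposed class. That class then held 340 of all 14884 genes, against 441 in the main fit. Under the other scales and choices of probe 7 to 9 of the 19 genes were in it. In each of these settings the median difference stayed above 0. It was 0.53 to 0.70 when single arrays were left out, while the FRAX-597 median was 0.29 without DMSO 4 and the IPA-3 median -0.13 without IPA-3 2. The neighbouring list of fatty acid synthesis and LXR targets had a median difference of 0.15 over 13 genes, with 1 gene, SREBF1, in the same opposed class.

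MAP2K6, LCP2 and MEFV were among the other genes that were higher with FRAX-597 and lower with IPA-3. MAP2K6, a kinase that activates p38, measured 6.94 and 7.10 in DMSO 1 and 2, 6.08 and 5.37 with IPA-3, 6.49 and 6.42 in DMSO 3 and 4, and 7.36 and 7.68 with FRAX-597. All 4 treated arrays lay beyond all DMSO arrays of the series, below with IPA-3 and above with FRAX-597. Its changes were -1.30 and 1.06 and the difference was 2.36 (SE 0.32, 95% interval 1.6 to 3.11, limma adjusted p = 0.186). LCP2, the adaptor SLP-76, measured 10.24 and 10.24, 9.69 and 9.69, 9.94 and 9.77, and 11.20 and 10.13 in the same order. Its 2 IPA-3 arrays were alike, whereas FRAX-597 1 carried most of the FRAX-597 change of 0.81. MEFV, which encodes the inflammasome protein pyrin, measured 7.59 and 7.69, 7.15 and 7.15, 8.68 and 8.0, and 9.31 and 8.76, with changes of -0.49 and 0.69.

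The remaining genes of this class named by the rule had IPA-3 changes of -0.41 to -0.52 and FRAX-597 changes of 0.48 to 0.99. They were SCIMP, an adaptor of antigen-presenting cells, PTAFR, the receptor of platelet-activating factor, ICOSLG, a costimulatory ligand, CASS4, a scaffold of the Cas family, SERINC5, a membrane protein that restricts retroviruses, and IRF2BP2, a transcriptional corepressor. Their differences ran from 0.92 for IRF2BP2 to 1.45 for ICOSLG. XBP1, the transcription factor of the unfolded protein response, had changes of -0.19 and 1.08, with FRAX-597 1 at 10.59 and FRAX-597 2 at 9.67 above DMSO arrays at 9.15 and 8.95. Among the 25 FOXO and growth restraint genes, CCNG2, KLHL24 and HBP1 were in this class, against 2.96% of all genes. Their FRAX-597 changes were 1.04, 0.82 and 0.66. TBX15, named after its values were seen, measured 6.31 and 6.32, 6.14 and 6.15, 8.33 and 7.63, and 10.07 and 10.06. It rose with FRAX-597 by 2.08 (limma adjusted p = 0.029), its IPA-3 change was -0.17, and its level in DMSO differed between the sets by more than either IPA-3 array moved.

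Of 13 heat shock response genes measured, 6 were lower with FRAX-597 and higher with IPA-3, a class that held 2.95% of all genes, and 0 had the opposite pattern. HSF1 was lower with both and 6 were in no class. The median change was -0.28 with FRAX-597 and 0.11 with IPA-3, and the median difference -0.48 against 0.01 over all genes, with 12 of 13 differences below 0. The difference had an unadjusted p under 0.05 in 6 of 13 genes, all lower, against 2.67% of all genes. After limma adjustment 0 passed for the difference or for either compound. HSPA1A, an inducible HSP70 gene, measured 11.32 and 11.26 in DMSO 1 and 2, 11.99 and 11.96 with IPA-3, 11.15 and 10.92 in DMSO 3 and 4, and 9.76 and 10.60 with FRAX-597. The groups did not overlap, and FRAX-597 1 was lower than FRAX-597 2 by 0.84. The difference was -1.53 (SE 0.35, 95% interval -2.35 to -0.72, limma adjusted p = 0.555). HSPA1B had nearly the same values, with changes of 0.59 and -0.85. The genes HSPA1A and HSPA1B are near-identical copies, so their probes may not tell them apart and they count as one measurement.

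BAG3, a co-chaperone that couples HSP70 to autophagy, measured 8.43 and 8.45, then 8.87 and 9.02 with IPA-3, and 8.87 and 8.52, then 8.46 and 8.26 with FRAX-597. The IPA-3 arrays stood clear of their controls, while the nearer FRAX-597 array lay 0.062 below DMSO 4. HSPH1 and STIP1, an HSP110 chaperone and an HSP70 to HSP90 adaptor, had FRAX-597 changes of -0.60 and -0.35 and IPA-3 changes of 0.11 and 0.08, and CHORDC1, an HSP90 cochaperone, had -0.28 and 0.13. HSPA6, named after its values were seen, had changes of 1.49 with IPA-3 and 0.19 with FRAX-597. The changes of HSF1 itself were -0.10 and -0.06. This pattern depended on scale and on single arrays. After scale normalization 2 of 13 genes were in the class, which then held 305 of all 14884 genes against 439 in the main fit. With all 4 DMSO arrays as controls 4 of 13 genes were in the class, which then held 49 genes. The median difference was -0.30 without DMSO 3 and -0.79 without DMSO 4. The FRAX-597 median was -0.10 both without DMSO 3 and without FRAX-597 2.

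Other genes lower with FRAX-597 and higher with IPA-3 included CD180, a Toll-like receptor relative on B cells and myeloid cells. CD180 measured 8.89 and 8.98, 9.57 and 9.31 with IPA-3, 9.25 and 7.96 in DMSO 3 and 4, and 7.06 and 6.75 with FRAX-597. DMSO 3 and 4 were 1.29 apart and both FRAX-597 arrays lay below them. The changes were 0.50 and -1.70 and the difference -2.21 (SE 0.52, limma adjusted p = 0.555). VEGFC, a lymphatic growth factor, measured 6.16 and 6.04, 7.35 and 7.40, 6.56 and 6.51, and 6.45 and 5.84, so that its IPA-3 change of 1.27 was clear of the controls and its FRAX-597 change of -0.40 came mostly from FRAX-597 2. The other 6 named by the rule, DKK2, POU2F2, RASA3, EDNRB, L3MBTL3 and RDH10, had IPA-3 changes of 0.39 to 0.53 and FRAX-597 changes of -0.43 to -0.58. POU2F2 is a lymphoid and myeloid transcription factor, EDNRB an endothelin receptor and RDH10 a retinol dehydrogenase. With all 4 DMSO arrays as controls, the differences of EDNRB and L3MBTL3 changed sign, to 0.12 and 0.24. FOSL1, an AP-1 subunit, had changes of 0.77 and -0.25, whereas its relative FOSL2, named after its values were seen, had -0.39 and 1.08.

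**Figure D3:**
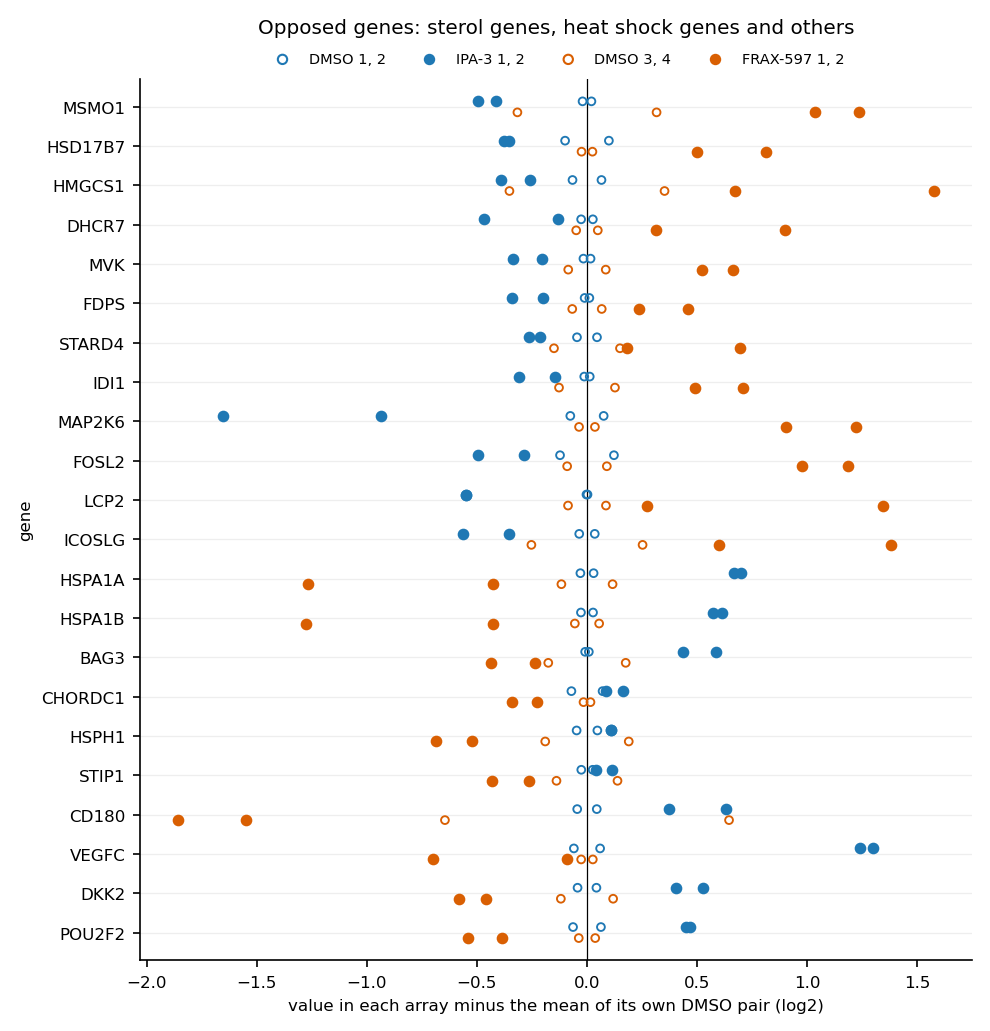
Opposed genes, with the value in each array minus the mean of its own DMSO pair (x axis, log2) for each gene (y axis). Open circles are DMSO arrays and filled circles treated arrays, blue for IPA-3 and its DMSO pair and orange for FRAX-597 and its pair. Sterol genes, MAP2K6, FOSL2, LCP2 and ICOSLG have IPA-3 on the left and FRAX-597 on the right, and chaperone genes, CD180, VEGFC, DKK2 and POU2F2 the reverse, with FRAX-597 arrays of STARD4, BAG3 and VEGFC close to a DMSO array.

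Of 40 listed genes of the ATF4 response, 26 were measured, and 12 of these were higher with both compounds, a class that held 3.16% of all genes. The list had 13 members in no class. ASNS, CTH and PSAT1 (synthesis of asparagine, cysteine and serine), the tRNA synthetases GARS1, IARS1 and EPRS1, ATF4 itself, SESN2, TRIB3 and STC2, VEGFA and the NKG2D ligand ULBP1 made up the 12. The median change was 0.82 with FRAX-597 and 0.16 with IPA-3. All 26 FRAX-597 changes were above 0, as were 19 of 26 IPA-3 changes, and all 26 differences were above 0. After limma adjustment 0 of the 26 passed with IPA-3 and 2 with FRAX-597. The median difference was 0.74 against 0.01 over all genes. The difference had an unadjusted p under 0.05 in 12 of 26 genes, all higher, against 3.43% of all genes, and in 0 after adjustment.

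ASNS, asparagine synthetase, measured 7.40 and 7.39 in DMSO 1 and 2, 8.23 and 8.21 with IPA-3, 8.11 and 7.66 in DMSO 3 and 4, and 9.65 and 8.71 with FRAX-597. Both pairs of treated arrays stood above their controls, the IPA-3 arrays closely together and the FRAX-597 arrays 0.94 apart. The changes were 0.82 with IPA-3 and 1.29 with FRAX-597, and the difference of 0.47 had a 95% interval of -0.48 to 1.41. ULBP1, a ligand that natural killer cells recognise, measured 4.78 and 5.13, 6.39 and 6.76, 6.40 and 5.16, and 8.33 and 6.65. FRAX-597 2 exceeded DMSO 3 by only 0.26, the changes were 1.62 and 1.71, and the interval of the difference ran from -1.78 to 1.95. ATF4 had changes of 0.39 and 0.57. VEGFA rose with FRAX-597 by 2.05 (limma adjusted p = 0.032), and its IPA-3 change was 0.42, with a difference of 1.63 (limma adjusted p = 0.471). TRIB3, a pseudokinase that dampens the response, had a FRAX-597 change of 2.05 and an IPA-3 change of 0.36. PSPH was the 1 list member that was higher with FRAX-597 and lower with IPA-3. DDIT4, named after its values were seen, had a FRAX-597 change of 2.12 and an IPA-3 change of 0.15, with IPA-3 arrays that overlapped DMSO.

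The FRAX-597 median of this list was 0.62 without FRAX-597 1 and 1.09 without FRAX-597 2, and its IPA-3 median was 0.07 without IPA-3 1. With all 4 DMSO arrays as controls 3 of the 26 genes stayed higher with both. That class then held 75 of all 14884 genes, against 470 in the main fit. The IPA-3 median was then -0.08 beside -0.26 over all genes. The IPA-3 changes of VEGFA and SESN2 were then -0.24 and -0.05. Under the other array scales 10 to 16 genes were higher with both.

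Other genes higher with both lay outside the ATF4 list, HIVEP2 and HIVEP1, large zinc finger proteins that bind NF-kB-like sites, among them. HIVEP2 measured 7.60 and 7.52, 9.83 and 9.86 with IPA-3, 7.84 and 8.0 in DMSO 3 and 4, and 10.08 and 8.18 with FRAX-597. IPA-3 arrays were alike and FRAX-597 arrays were not: one was as high as with IPA-3 and the other 0.18 above DMSO 4. HIVEP1 measured 7.08 and 7.2, 8.35 and 8.32, 7.97 and 7.82, and 9.90 and 9.27, clear of its controls with each compound. It rose with FRAX-597 by 1.69 (limma adjusted p = 0.0306), and its IPA-3 change was 1.2 (adjusted p = 0.251). IL7R, the interleukin-7 receptor chain, measured 6.80 and 7.08, 8.33 and 8.21, 6.95 and 7.07, and 9.52 and 8.70. It rose with FRAX-597 by 2.10 (limma adjusted p = 0.032), its IPA-3 change was 1.33, and the interval of the difference was -0.05 to 1.59.

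DUSP4, a phosphatase that turns off MAP kinases, measured 5.74 and 6.21, 7.25 and 7.40, 7.71 and 6.39, and 10.04 and 8.46. Its DMSO arrays of the second set differed by 1.32 and its FRAX-597 arrays by 1.58 in the same direction. RIT1, EID3 and ABHD4 had IPA-3 changes of 1.24 to 1.38 and FRAX-597 changes of 0.62 to 0.77, and the adaptor SH2D2A had 0.65 and 1.76. Of 21 cytokine receptor and JAK-STAT genes, 5 were higher with both, against 3.16% of all genes, with IL7R and its partner chain CRLF2 among them. IL4R was higher with FRAX-597 and lower with IPA-3, JAK2 was lower with both, and 14 were in no class. With all 4 DMSO arrays as controls, 2 of the 21 were higher with both, a class that then held 75 of all 14884 genes. CRLF2 rose with FRAX-597 by 2.83 (limma adjusted p = 0.0254), and STAT4, named after its values were seen, rose by 3.42 (limma adjusted p = 0.029). Their IPA-3 changes were 0.44 and 0.40, so they are shared in direction and unequal in size. PIM1, a survival kinase, had nearly equal changes of 0.55 and 0.56. Over all 470 genes higher with both, FRAX-597 1 was above FRAX-597 2 in 65.5% against 47.2% of all genes, and DMSO 3 was above DMSO 4 in 54.3% against 52.4%.

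Antioxidant genes were higher mainly with IPA-3. Of 15 NRF2 targets measured, 14 had an IPA-3 change above 0, 14 had a difference below 0, and the median change was 0.68 with IPA-3 and 0.05 with FRAX-597, for a median difference of -0.62. The difference had an unadjusted p under 0.05 in 8 of 15 genes, all lower, against 2.67% of all genes, and in 0 after adjustment. SRXN1, OSGIN1, TXNRD1 and MAFG were higher with both, against 3.16% of all genes. UGDH was lower with FRAX-597 and higher with IPA-3, against 2.95% of all genes. OSGIN1, an oxidative stress growth inhibitor, measured 6.25 and 6.09, 7.93 and 7.85 with IPA-3, 7.05 and 7.03, and 7.44 and 7.21 with FRAX-597. It rose with IPA-3 by 1.72 (limma adjusted p = 0.0108) and its FRAX-597 change was 0.29 (adjusted p = 0.659). TXNRD1, thioredoxin reductase, had changes of 0.96 and 0.22. HMOX1, haem oxygenase, and GSR, glutathione reductase, named after their values were seen, had IPA-3 changes of 1.71 and 1.47 and FRAX-597 changes of -0.03 and -0.00. HMOX1 in the second set followed the pairs of arrays, at 10.01 and 8.83 in DMSO and 10.11 and 8.66 with FRAX-597. The median difference of the list was -0.39 without FRAX-597 2 and -0.80 without FRAX-597 1.

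MYB and the receptors CYSLTR1, RXFP1 and CCR2 were lower with both compounds. MYB measured 10.65 and 10.58 in DMSO 1 and 2, 9.75 and 9.75 with IPA-3, 10.98 and 10.97 in DMSO 3 and 4, and 10.12 and 9.97 with FRAX-597. Treated arrays lay below every DMSO array of the series. MYB fell by 0.93 with FRAX-597 (SE 0.10, limma adjusted p = 0.029), and its IPA-3 change was -0.87 (SE 0.10, adjusted p = 0.0941). The difference was -0.06, with a 95% interval of -0.41 to 0.29. CYSLTR1, a cysteinyl leukotriene receptor, measured 7.48 and 7.36, 5.99 and 6.03, 8.18 and 8.24, and 7.05 and 7.42. It fell by 1.41 with IPA-3 (limma adjusted p = 0.043), its FRAX-597 change was -0.97 (adjusted p = 0.0694), and the interval of the difference was -0.03 to 0.91. RXFP1, the relaxin receptor, measured 8.18 and 8.34, 7.55 and 7.44, 8.63 and 8.55, and 7.60 and 7.53. It fell by 1.02 with FRAX-597 (limma adjusted p = 0.029) and its IPA-3 change was -0.76 (adjusted p = 0.182).

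CCR2, the receptor that draws monocytes to CCL2, measured 9.75 and 9.82, 8.60 and 8.2, 9.36 and 8.10, and 7.30 and 7.13. It had the largest smaller change of its class, with changes of -1.39 and -1.52, but its DMSO 3 and 4 arrays were 1.26 apart, and the interval of the difference was -1.32 to 1.06. EGR1, an immediate early transcription factor, measured 9.33 and 9.32, 8.41 and 8.33, 9.58 and 9.66, and 8.68 and 9.15, with no overlap in either set. PTGER4, a prostaglandin E2 receptor, had changes of -0.55 and -1.08, and DHRS13, TNS3, FAR2 and ZNF692 had IPA-3 changes of -0.55 to -0.69 and FRAX-597 changes of -0.55 to -0.83. BCL2, the antiapoptotic protein, had -0.52 and -0.51, at 9.48 and 9.56, 8.99 and 9.0, 8.51 and 9.0, and 8.31 and 8.18. Of the 19 MLL-fusion and progenitor genes measured, 4 were lower with both, FLT3 and LMO2 among them, against 5.97% of all genes. CPEB2 and RUNX1 were higher with both, against 3.16%, and 13 were in no class.

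Many ribosome production and DNA replication genes were lower with both compounds. Of 25 genes for RNA polymerase I or the processing of rRNA, 11 were lower with both, against 5.97% of all genes, with median changes of -0.15 with IPA-3 and -0.33 with FRAX-597. WDR3, of the small subunit processome, measured 9.14 and 9.25, 8.97 and 8.84, 8.29 and 8.65, and 7.70 and 8.0. Its groups were apart in both sets, by more with FRAX-597. URB2, named after its values were seen, fell by 1.07 with FRAX-597 (limma adjusted p = 0.0381), and its IPA-3 change was -0.10. Among 26 MYC targets, 8 were lower with both, against 5.97% of all genes. Another 2, ODC1 and WDR43, were higher with IPA-3 and lower with FRAX-597, against 2.95%. The medians of the 26 genes were -0.18 with IPA-3 and -0.31 with FRAX-597. Of 29 G1 to S and replication genes, 10 were lower with both, against 5.97% of all genes, and each opposed class held 1, against 2.96% and 2.95%. UHRF1 was lower by 0.49 and 0.47 and MCM3 by 0.50 and 0.32, and the medians of the list were -0.13 and -0.27. The 28 mitosis genes had 2 members lower with both, against 5.97% of all genes, and medians of -0.14 and -0.04. That count rose without FRAX-597 2 and without DMSO 4, where fewer arrays must lie apart. The class over all genes also rose, but by a smaller factor in both fits. The low count of the mitosis list in the main fit thus rested on single arrays. The FRAX-597 median of the mitosis list was -0.08 and -0.09 in these fits. That of the replication list was -0.34 and -0.35, and the lists were not tested against each other. With all 4 DMSO arrays as controls, 3 polymerase I genes, 4 MYC targets and 1 replication gene were lower with both. That class then held 137 of all 14884 genes, against 889 in the main fit. The IPA-3 change of WDR3 was then 0.07. Without FRAX-597 2 the FRAX-597 median of the polymerase I list was -0.16, and without IPA-3 2 the IPA-3 median of the MYC targets was -0.07.

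MYC itself measured 8.72 and 8.70, 8.56 and 8.50 with IPA-3, 8.51 and 8.51 in DMSO 3 and 4, and 7.43 and 7.85 with FRAX-597. It was lower with both, by less with IPA-3, whose change was -0.18 against -0.87 (limma adjusted p = 0.841 and 0.132). The difference was -0.68 (95% interval -1.16 to -0.20, adjusted p = 0.674).

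**Figure D4:**
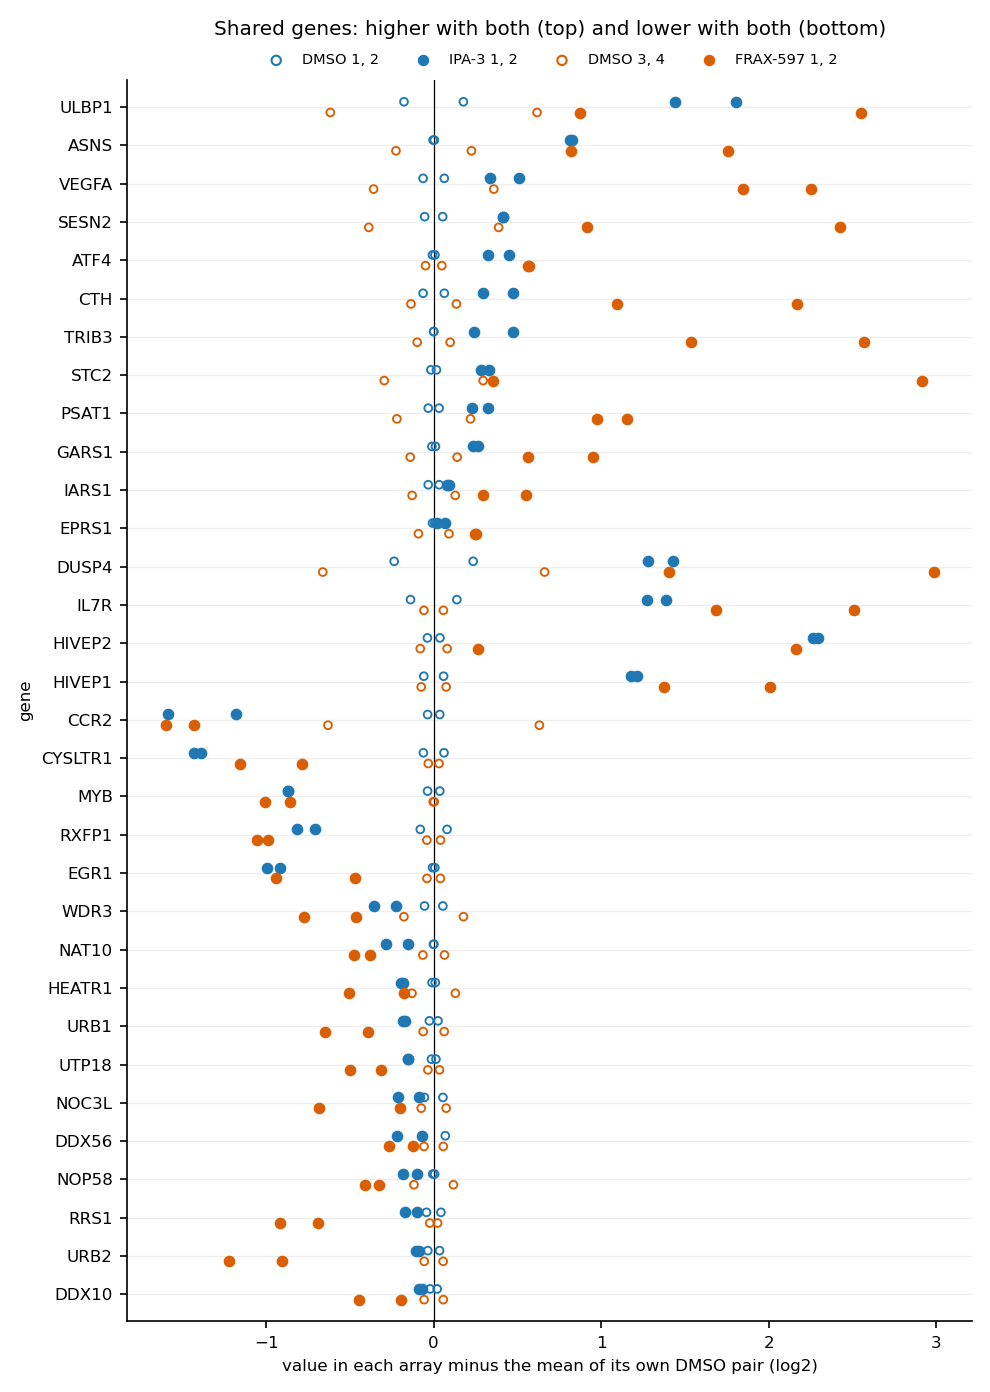
Shared genes, with the value in each array minus the mean of its own DMSO pair (x axis, log2) for each gene (y axis). Open circles are DMSO arrays and filled circles treated arrays, blue for IPA-3 and its DMSO pair and orange for FRAX-597 and its pair. Stress genes, DUSP4, IL7R, HIVEP2 and HIVEP1 lie to the right with both compounds, and the FRAX-597 arrays of HIVEP2, at 10.08 and 8.18 before centring, lie far apart. Receptors, MYB, EGR1 and ribosome production genes lie to the left, the last within a narrow range with IPA-3.

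Of the group I PAKs, PAK2 was the one analysed. PAK2 measured 9.15 and 9.24, 9.21 and 9.29, 9.42 and 9.45, and 9.45 and 9.61, with changes of 0.05 and 0.09, and the interval of its difference was -0.32 to 0.40. In group II, PAK4 had changes of 0.16 and 0.05 and PAK5, below the median probe level at 4.93 to 5.75, had -0.19 and 0.14. PAK1, PAK3 and PAK6 were not analysed here. Of the 18 PAK family and partner genes measured, 4 were lower with both, NF2, STMN1, GIT1 and GIT2, against 5.97% of all genes. In the other classes there were 0, and the count was not tested.

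Other lists held few members of any class. NF-kB and inflammatory genes had medians of 0.57 with IPA-3 and 0.75 with FRAX-597 over 20 genes. CCL20 and CCL4 were in the class higher with both, against 3.16% of all genes. The FRAX-597 median was -0.04 without FRAX-597 1 and 1.36 without FRAX-597 2. None of the 15 interferon response genes was in a class, and their median changes were -0.45 and -0.04. The FRAX-597 median rested on single arrays: it was -1.08 without FRAX-597 1, 1.16 without FRAX-597 2, 0.80 without DMSO 3 and -0.87 without DMSO 4, and the median difference of 0.39 ran from -0.80 to 1.43 over these fits. Of 14 unfolded protein response genes, XBP1 and SEL1L were higher with FRAX-597 and lower with IPA-3, against 2.96% of all genes. MANF and SDF2L1 were lower with both, against 5.97%. Of 9 metallothionein and metal response genes, MT1X and MT1F had IPA-3 changes of -0.62 and -0.26 and FRAX-597 changes of 0.09 and 0.39. MT1B, below the median probe level, was in the reverse class with changes of 0.13 and -0.15. The list's median difference of 0.32 was -0.04 without FRAX-597 1. Lysosome and autophagy genes numbered 23 with 0 in a class.

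**Figure D5:**
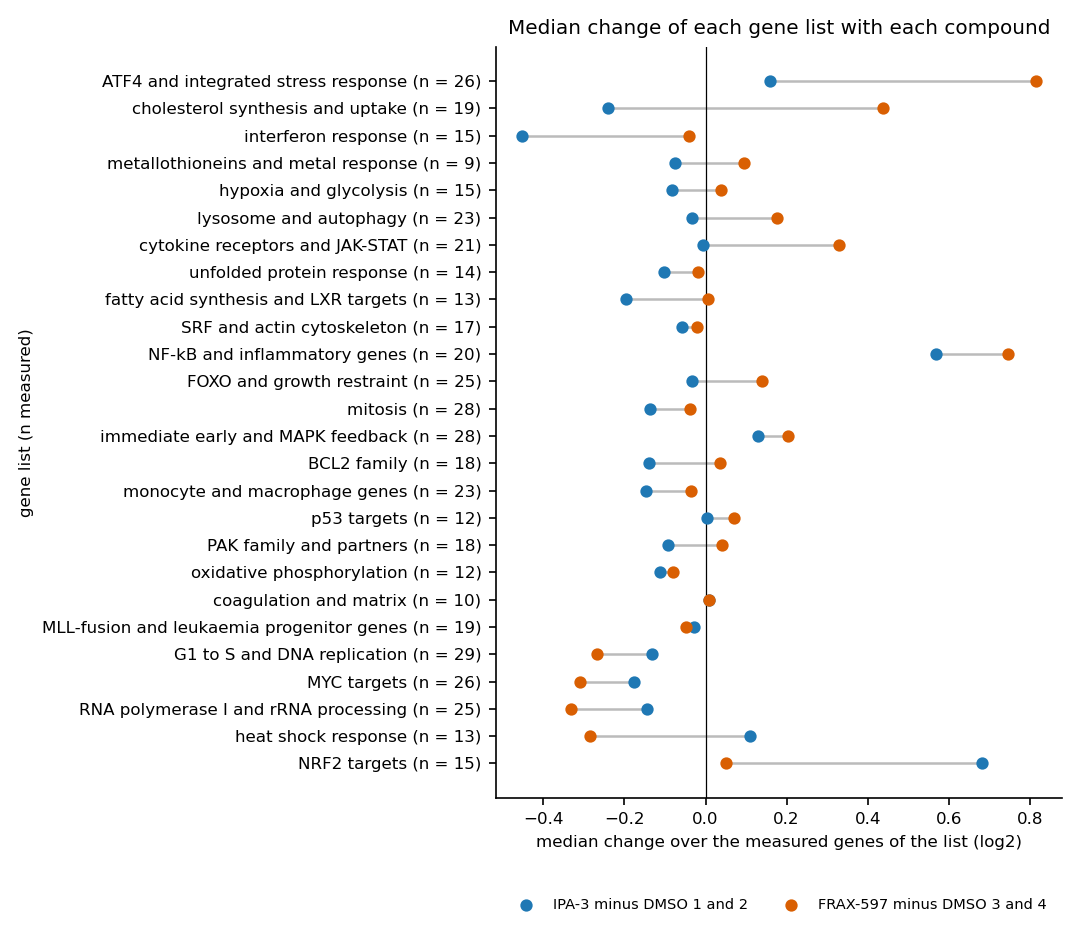
Median change of each gene list (x axis, log2) with IPA-3 (blue) and FRAX-597 (orange), with the number of genes measured beside the list's name (y axis), ordered by the median difference. Points have no error bars because a median over genes is not a replicate value. The line crosses 0 for cholesterol synthesis (-0.24 and 0.44) and for the heat shock response (0.11 and -0.28). It also crosses 0 for other lists, among them cytokine receptors and JAK-STAT (-0.01 and 0.33) and lysosome and autophagy (-0.03 and 0.18). The ATF4 list is above 0 with both, and ribosome production, MYC targets and DNA replication are below 0 with both.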

How the data were processed

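RNA was measured on 1-colour Affymetrix whole-transcript arrays after biotin labelling, per the labels. The authors deposited log2 expression values, 1 per probe and array. Affymetrix Expression Console and Transcriptome Analysis Console are named by the submitters' processing notes. Summarisation, normalization, whether all arrays were normalized together, and the genome build are not given in the sources used here. Of 53617 probes, 16098 carry exactly 1 symbol, 0 carry several and 37519 are unnamed. For the 779 genes with several probes the probe with the highest mean was used, giving 14884 genes. Arrays carry no read depth, and their number limits the precision.

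A linear model with 4 group means (DMSO 1 and 2, IPA-3, DMSO 3 and 4, FRAX-597) was fitted with limma 3.58.1 in R 4.3.3 (lmFit, eBayes), with Benjamini-Hochberg adjustment over all 14884 genes and a threshold of 0.05. Its code was run on simulated data with independent arrays and known differences. Those data lack the likeness of array pairs in the second set, so they do not show how the fit performs on these arrays. The rule for named genes was: THBS1, SRXN1, MSMO1, MYB, MYC and the PAK genes, genes past the threshold, the 10 genes per class with the largest smaller change at or above the median probe level, and up to 3 class members per list. Non-coding and unnamed transcripts were left out of naming. The members and the gene lists were chosen with earlier results of these data known, so they support nothing independently, and some genes are in more than 1 list. Replicate numbers only name the arrays. Alternatives changed the array scale, the probe of a gene, the filter on dim genes, the controls, the spread estimate and the arrays included. Promoter sequences are from RefSeq, GRCh38.p14.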

Additional observations from a re-analysis of the deposited data

Results flagged for a closer look

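Among 97 named genes, 3 had 1 DMSO array far from the other 3, where chance alone gives about 1 in 20. MSMO1 was one: DMSO 3 measured 10.38 and the others 9.67 to 9.74, so the gap made up 0.896 of the range. In NAT10, an rRNA acetyltransferase, the value of DMSO 4 at 9.40 lay apart from 3 arrays at 9.27, a share of 0.978. In RRM2B, a ribonucleotide reductase subunit, the value of DMSO 3 at 8.10 lay below 8.33 to 8.36, a share of 0.885.

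A probe without a gene name, 16903897, was outside the comparison of named genes and had a difference between the compounds of 3.5642 (limma adjusted p = 0.0112 over all 53617 probes). It measured 6.87 and 6.97 in DMSO 1 and 2, 7.0 and 7.07 with IPA-3, 7.04 and 6.81 in DMSO 3 and 4, and 10.67 and 10.55 with FRAX-597. Treating every probe as its own feature was chosen after seeing the data.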

How the results depend on the processing

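With 2 arrays a group, few results pass a threshold. For the difference between compounds (2 genes), quantile normalization, centring on the median, averaging the probes of a gene, taking the lowest probe, pooled controls and an intensity trend each called THBS1 and SYT4, and scale normalization, only genes at or above the probe median, and a variance for each array set gave 1, THBS1. With every probe as its own feature there were 2 calls, the THBS1 probe and the unnamed probe 16903897, and the SYT4 probe was not called. A replicate block with DMSO 3 and FRAX-597 1, and DMSO 4 and FRAX-597 2, as pairs gave 38 (26 higher, 12 lower); the pairing was read from values (r = 0.65) and the labels state none. Under it 31 named gene values newly passed the threshold, which is no support for them because the pairs were chosen from the same values. Leaving out single arrays gave 0 to 27. Class counts rise when an array is left out because fewer arrays must lie apart: 623 to 1204 genes higher with FRAX-597 and lower with IPA-3, 699 to 966 with the reverse, 685 to 1087 higher with both and 1181 to 1855 lower with both. A minimum of 0.5 for both changes gave 2, 4, 32 and 20 genes in that order, and a minimum of 1 gave 1, 0, 5 and 1. Pooled controls, which leave the shift between the array sets in the values (median difference 0.49), gave 340, 49, 75 and 137. Scale normalization gave 617, 305, 432 and 896, and genes at or above the probe median 369, 262, 360 and 787. With pooled controls 17 named gene values reversed: the differences of EDNRB (0.12), L3MBTL3 (0.24) and ADM (0.49), the IPA-3 changes of BID (-0.41), PAK2 (-0.070), PAK4 (-0.40), PLK3 (-0.081), RHOB (-0.16), SDF2L1 (0.41), SESN2 (-0.053), VEGFA (-0.24) and WDR3 (0.075), and the FRAX-597 changes of BCL2L11 (0.029), CENPA (0.18), FAR2 (0.058), GINS2 (0.11) and STMN1 (0.23). With single arrays left out, the FRAX-597 change of PAK4 ran from -0.066 (without FRAX-597 1) to 0.17 and was -0.0069 without DMSO 4. That of PAK5 ran from -0.18 (without FRAX-597 1) to 0.46, and the IPA-3 change of PAK5 from -0.44 to 0.068 (without DMSO 2). Over all alternatives, named gene values kept direction and side of the threshold in 2635 cases, newly passed it in 87, lost it in 75 and reversed in 21. List medians of the difference stayed within the array spread in 416 cases and moved further in 52. They changed sign in 2 lists with pooled controls, in 9 lists when single arrays were left out, and in 1, the MLL-fusion list, under other scales. The causes were not tested.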
